A study of Mus musculus with 18 samples.

Results

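The BCL2 family decides whether a cell's mitochondria release the factors that start apoptosis, and 10 of its genes are described here: 5 anti-apoptotic members and 5 pro-apoptotic members out of 56748 genes in the authors' tables. They were chosen by gene symbol, as genes whose listed name equals *Bcl2*, *Bcl2l1*, *Mcl1*, *Bcl2a1b* or *Bcl2a1d* (anti-apoptotic), *Bax* or *Bak1* (effectors), or *Bcl2l11*, *Pmaip1* or *Bbc3* (BH3-only proteins). The 10 members passed the filter on low counts and were among the 13691 genes tested. RNA was sequenced from cells of an established mouse macrophage line in 6 groups of 3 libraries. The groups were an untreated control, TBHQ (tert-butylhydroquinone, a phenol that activates the antioxidant regulator NRF2) at 5 µM for 4 h, LPS (a bacterial cell wall component sensed by TLR4) at 0.1 µg/mL for 12 h, PIC (poly(I:C), a double-stranded RNA mimic sensed by TLR3) at 20 µg/mL for 12 h, and LPS or PIC given after TBHQ, written LPS+TBHQ and PIC+TBHQ. The series compares the stimuli with and without TBHQ. Cells of the TBHQ group were taken at 4 h, while the study's design figure and a table note put the untreated control with cells stimulated for 12 h, so TBHQ alone against control differs in time as well as in treatment. The study dissolved TBHQ in DMSO and describes the sequenced control as left untreated. Comparisons with and without TBHQ may therefore also differ in this solvent. The groups come from 1 cell line. A p-value here rests on the spread between libraries labelled as biological replicates, 3 in each group, estimated over the 6 groups together.

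Libraries held 14423390 to 18851626 counts on genes. The label of a macrophage was checked against marker genes. The 8 macrophage markers were over 3 counts, with a sum of 5575 to 6582 FPKM (fragments per kilobase, scaled to library size, a level that allows genes to be compared) and *Lyz2* as the most abundant at 4021 FPKM. Summed markers of other cells reached at most 0.0582 FPKM for T cells, 0.338 for B cells, 0.122 for fibroblasts, 0.0279 for epithelium and 0.235 for endothelium, and *Cd3e*, *Cd3d*, *Cd8a*, *Ms4a1*, *Col1a1*, *Col1a2* and the 4 epithelial markers were at or under 3 counts.

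Anti-apoptotic members hold the effectors BAX and BAK in check at the outer mitochondrial membrane. BH3-only proteins are made or released under stress, bind the groove of anti-apoptotic members and free or activate the effectors, which then form pores that let cytochrome c out. Macrophages raise several anti-apoptotic members when Toll-like receptors are engaged, and MCL1 and A1 (the product of the *Bcl2a1* genes) are short-lived proteins whose amount depends on continued transcription.

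In untreated cells the members differed widely in level. *Mcl1* stood at 170.2 ± 1.74 FPKM (SD, n = 3), above 98.9% of the 22704 genes with a count in the control, and *Bax* at 150.4 ± 6.18 FPKM. *Bak1* stood at 67.8 ± 0.415 FPKM and *Bcl2a1d* at 41.1 ± 2.03 FPKM. *Bcl2l1* (24.0 ± 1.56 FPKM), *Bcl2a1b* (15.8 ± 0.22), *Bbc3* (15.2 ± 0.577) and *Pmaip1* (12.9 ± 1.43) lay in the middle. *Bcl2l11* at 3.23 ± 0.196 FPKM and *Bcl2* at 1.74 ± 0.139 FPKM were lowest, with *Bcl2* above 56.3% of those genes.

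A gene is called changed here at a false discovery rate (FDR, a p-value adjusted by the Benjamini-Hochberg method over the genes tested, from edgeR's quasi-likelihood test) below 0.05. With LPS, 6 members were called higher than in the control, beside 24% of all genes tested, and 2 were called lower, beside 24.1%. With PIC, 6 were called higher, beside 28.6% of all genes, and 2 lower, beside 30.1%. By role, LPS gave 4 higher and 0 lower of the 5 anti-apoptotic members (0 lower at an unadjusted p under 0.05, 0 in DESeq2 and 0 in limma) and 2 higher and 2 lower of the 5 pro-apoptotic members. PIC gave 4 higher and 1 lower anti-apoptotic member and 2 higher and 1 lower pro-apoptotic member. The median log2 fold change was 0.79 with LPS and 0.80 with PIC over the anti-apoptotic members, against 0.00 and -0.01 over all genes tested. Over the pro-apoptotic members it was 0.02 with LPS and 0.06 with PIC, and these 2 medians became -0.07 and -0.16 when libraries were scaled by their totals. Under that scaling the anti-apoptotic medians were 0.70 with LPS and 0.59 with PIC, which turns their order. That scaling moved the median of all genes to -0.09 with LPS and -0.23 with PIC, and the genes called higher and lower from 3283 and 3306 to 2454 and 4558 with LPS and from 3917 and 4120 to 2379 and 6635 with PIC. Members called higher and lower were then 5 and 2 with LPS and 6 and 4 with PIC. Without control replicate 2 or LPS replicate 3, 1 member was called lower with LPS. At the study's own threshold for these comparisons (FDR below 0.01 and a log2 fold change beyond 2 in size), 1 member passed with PIC (*Bcl2a1d*, beside 3.57% of all genes, at a log2 fold change that was 1.85 under total library size), 0 with LPS (1.64%) and 0 with TBHQ alone (0.19%). These comparisons share the control libraries.

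PIC against LPS gave 5 members called higher, beside 14.9% of all genes tested, and 1 lower, beside 12.8%. Higher were 3 anti-apoptotic and 2 pro-apoptotic members and lower was 1 anti-apoptotic member, with 0 pro-apoptotic members lower (0 at an unadjusted p under 0.05 in edgeR, 0 in DESeq2, 0 in limma). The 2 pro-apoptotic members called higher were BH3-only genes. That number was 1 without LPS replicate 1, LPS replicate 3, PIC replicate 2 or PIC replicate 3. The median over the 10 members was 0.13, against -0.01 over all genes, and was -0.00068 under total library size, which moved the median of all genes to -0.14. Under that scaling 4 members were called higher and 2 lower, beside 985 genes higher and 4373 lower (2035 and 1752 before), with *Pmaip1* no longer called and *Bcl2l1* called lower.

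TBHQ before LPS gave 7 members called lower than with LPS alone, beside 12.2% of all genes tested, and 0 higher, beside 11.7% (0 at an unadjusted p under 0.05 in edgeR, 0 in DESeq2, 0 in limma). TBHQ before PIC gave 7 called lower than with PIC alone, beside 15.5% of all genes, and 1 higher, beside 15.8%. In each of the 2 comparisons the members called lower were 4 anti-apoptotic and 3 pro-apoptotic members, and the 3 were the BH3-only members. The 4 further BH3-only genes tested, of the wider family, had values above 0 in both comparisons. Of these, 2 were called higher and 0 lower before LPS (median 0.35), and 3 higher and 0 lower before PIC (median 0.31). Each count of those higher was 1 with certain single libraries left out. The median over the 10 members was -0.34 with LPS and -0.44 with PIC, against 0.00 and 0.01 over all genes. Under total library size 7 members were called lower and 1 higher for TBHQ before LPS, and 6 lower and 3 higher before PIC. That scaling took all genes called higher and lower from 1601 and 1673 to 2061 and 1401 before LPS and from 2167 and 2118 to 3398 and 1436 before PIC. The number higher for TBHQ before PIC was 0 without PIC replicate 1 and 2 without PIC+TBHQ replicate 1. TBHQ alone against control gave 5 members called lower, beside 14.8% of all genes, and 1 higher, beside 14.2%, with 3 anti-apoptotic and 2 pro-apoptotic members among those lower and a median of -0.09 over the 10, and 0 were higher without control replicate 3 or TBHQ replicate 3. The difference in the TBHQ effect between the stimuli (PIC+TBHQ against PIC minus LPS+TBHQ against LPS) gave 0 members higher, beside 0.825% of all genes, and 0 lower, beside 1.01% (113 and 138 genes, and 235 and 74 under total library size). In that difference 3 members had an unadjusted p under 0.05 in edgeR, in each case with a negative sign, DESeq2 called 1 (*Mcl1*, -0.12 with an adjusted p of 0.0334 in its Wald test) and limma called 0. The difference was 0.28 for *Bcl2*, 0.00 for *Bcl2l1*, -0.10 for *Mcl1*, 0.18 for *Bcl2a1b*, -0.12 for *Bcl2a1d*, 0.06 for *Bax* and for *Bak1*, -0.19 for *Bcl2l11*, -0.27 for *Pmaip1* and 0.10 for *Bbc3*.

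**Figure D1:**
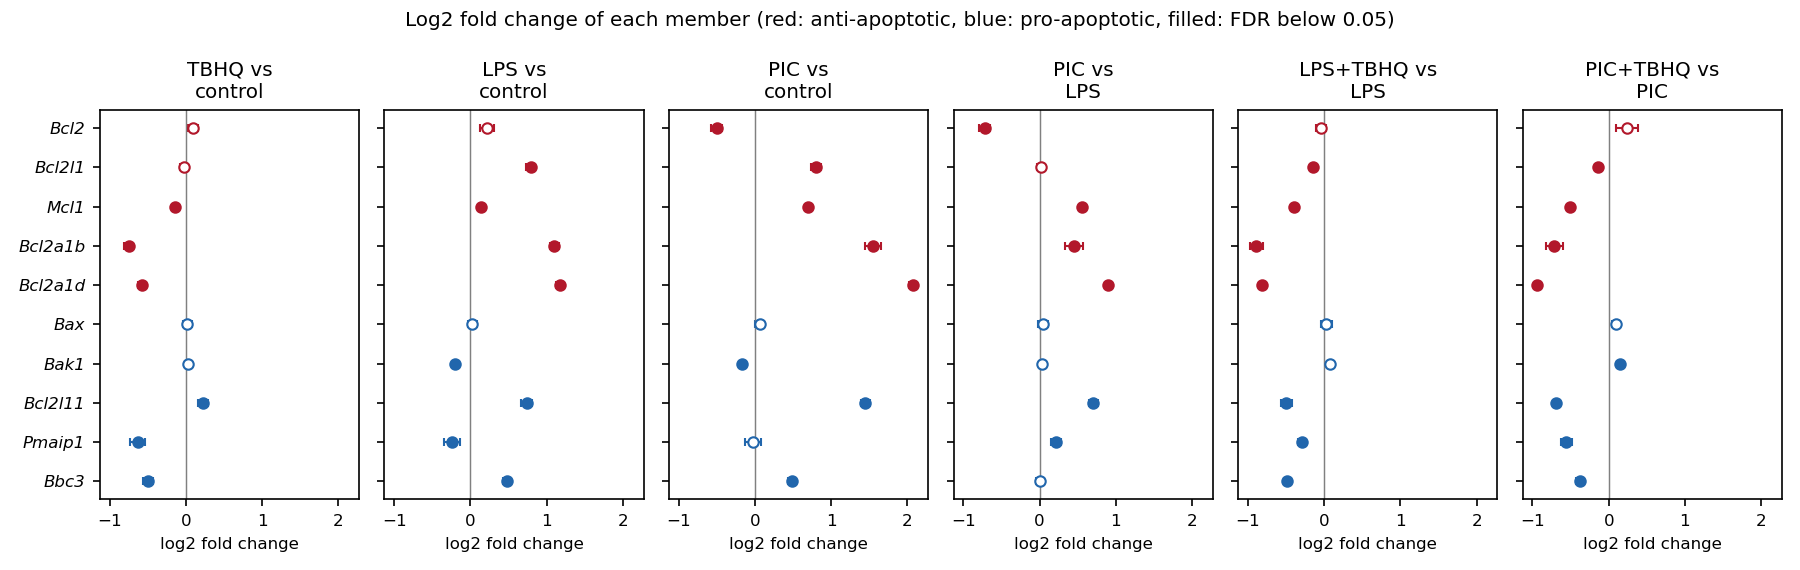
Log2 fold change (horizontal axis) of each of the 10 members in 6 comparisons, with bars for the standard error and filled points for an edgeR FDR below 0.05, anti-apoptotic members in red and pro-apoptotic members in blue. The farthest point to the right is *Bcl2a1d* with PIC at 2.07, and with TBHQ before either stimulus *Bax* and *Bak1* lie at or right of 0 while the BH3-only members lie left of it.

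*Bcl2a1d* and *Bcl2a1b* encode A1, an anti-apoptotic protein of blood cells and a known target of NF-κB. *Bcl2a1d* (ENSMUSG00000099974, chr9:88605338-88613967, minus strand, positions here being those of the authors' files) read 39.2, 43.2 and 41.0 FPKM in the control libraries and 26.9, 29.0 and 27.3 FPKM with TBHQ. With LPS it read 91.2, 92.2 and 96.3 FPKM, and with LPS+TBHQ 54.5, 53.3 and 51.4 FPKM. With PIC it read 176.7, 179.0 and 169.6 FPKM, and with PIC+TBHQ 90.2, 92.6 and 89.2 FPKM. PIC libraries were highest and TBHQ libraries lowest, each group with TBHQ lay wholly under its partner without it, and the only groups that overlapped were LPS and PIC+TBHQ. *Bcl2a1d* rose, by edgeR's quasi-likelihood test and Benjamini-Hochberg adjustment, with LPS by 1.17 on the log2 scale (standard error, SE, 0.047, adjusted p = 1.6e-20) and with PIC by 2.07 (SE 0.048, 6.5e-29), a fold change of 4.20. It rose by a further 0.90 (SE 0.035, 6.0e-18) in PIC against LPS in the same edgeR test with Benjamini-Hochberg adjustment. It was lower with TBHQ in that edgeR test with Benjamini-Hochberg adjustment, before LPS (-0.82, SE 0.034, 1.0e-15), before PIC (-0.94, SE 0.029, 2.0e-18) and alone (-0.57, SE 0.053, 7.2e-10). In bulk RNA, fewer cells carrying a transcript and less of it per cell cannot be told apart.

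*Bcl2a1b* (ENSMUSG00000089929, chr9:89081262-89089880, plus strand) read 15.6, 15.6 and 16.0 FPKM in the control and 9.84, 9.58 and 8.69 FPKM with TBHQ. With LPS it read 34.8, 35.7 and 31.3 FPKM, and with LPS+TBHQ 18.3, 19.8 and 17.0 FPKM. With PIC it read 49.5, 50.2 and 40.4 FPKM, and with PIC+TBHQ 28.8, 29.5 and 26.5 FPKM. Its order of groups was that of *Bcl2a1d*, and no neighbours in that order overlapped. By edgeR's quasi-likelihood test and Benjamini-Hochberg adjustment it rose by 1.10 with LPS (SE 0.059, adjusted p = 2.0e-12), by 1.55 with PIC (SE 0.10, 3.9e-17) and by 0.45 in PIC against LPS (SE 0.12, 6.3e-05). The same edgeR test with Benjamini-Hochberg adjustment gave -0.89 for TBHQ before LPS (SE 0.085, 8.0e-10), -0.71 before PIC (SE 0.11, 1.7e-08) and -0.75 for TBHQ alone (SE 0.056, 1.3e-06). The ratio of *Bcl2a1d* to *Bcl2a1b* FPKM was 2.61 ± 0.137 (SD, n = 3) in the control, 2.96 ± 0.21 after TBHQ, 2.76 ± 0.273 after LPS, 2.90 ± 0.18 after LPS+TBHQ, 3.78 ± 0.363 after PIC and 3.22 ± 0.133 after PIC+TBHQ.

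The mouse genome carries near-identical copies of this gene, which limits how well reads are told apart between them. Of the transcript words of 50 bases, 79.2% of *Bcl2a1b* and 79.5% of *Bcl2a1d* also occur in another gene, mainly in each other, in *Bcl2a1a* and in *Gm29094*. The coding sequences hold 516 bases each in GENCODE vM21, and *Bcl2a1b* and *Bcl2a1d* differ at 6 of them (98.8% identity). *Bcl2a1b* also overlaps *Gm29094* on its own strand by 8449 bases in the authors' table, and that gene had 0 to 11 counts per library. The first 60 coding bases are shown because they hold 6 of the 12 positions at which the 3 copies differ. Some of these positions set *Bcl2a1a* apart but are the same in *Bcl2a1b* and *Bcl2a1d*. Capitals mark those positions and the sequences run 5′ to 3′ on the coding strand.
Bcl2a1a: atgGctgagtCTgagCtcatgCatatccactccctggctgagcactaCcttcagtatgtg
Bcl2a1b: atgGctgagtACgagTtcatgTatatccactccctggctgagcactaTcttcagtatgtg
Bcl2a1d: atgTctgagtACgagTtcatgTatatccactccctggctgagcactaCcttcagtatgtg
When the counts of the 3 copies were summed into 1 gene before the fit, a choice made after seeing the data, edgeR's quasi-likelihood test and Benjamini-Hochberg adjustment gave 1.23 with LPS (SE 0.026, adjusted p = 4.4e-22), 2.01 with PIC (SE 0.048, 2.7e-29) and 0.78 in PIC against LPS (SE 0.041, 6.4e-17). TBHQ gave -0.87 before LPS (SE 0.029, 2.7e-17), -0.91 before PIC (SE 0.047, 1.0e-18) and -0.62 alone (SE 0.039, 1.3e-11) for the sum in that edgeR test with Benjamini-Hochberg adjustment.

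*Mcl1* (ENSMUSG00000038612, chr3:95566099-95570487, plus strand) encodes the anti-apoptotic member that binds BAK, BIM and NOXA. It read 168.2, 171.5 and 170.8 FPKM in the control and 153.9, 155.3 and 153.6 FPKM with TBHQ. With LPS it read 187.4, 186.0 and 193.9 FPKM, and with LPS+TBHQ 146.3, 140.5 and 143.8 FPKM. The PIC libraries held 279.1, 285.0 and 272.7 FPKM, and with PIC+TBHQ 196.2, 191.5 and 198.7 FPKM. The PIC libraries stood apart from the rest, the LPS+TBHQ libraries were lowest and below the control, and LPS and PIC+TBHQ overlapped. *Mcl1* rose by 0.70 with PIC (edgeR quasi-likelihood test, Benjamini-Hochberg adjusted p = 8.6e-21, SE 0.021) and by 0.55 in PIC against LPS (8.6e-17, SE 0.027). It rose by 0.14 with LPS (edgeR quasi-likelihood test, Benjamini-Hochberg adjusted p = 0.00014, SE 0.020), a call that total library size ended (0.06, adjusted p = 0.11). TBHQ gave -0.40 before LPS (SE 0.025, 6.5e-13), -0.50 before PIC (SE 0.026, 1.0e-15) and -0.14 alone (SE 0.010, 0.00035) by edgeR's quasi-likelihood test and Benjamini-Hochberg adjustment.

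*Bcl2l1* (ENSMUSG00000007659, chr2:152622588-152673648, minus strand) encodes BCL-XL, which restrains BAX and BAK. It lay between 23.1 and 25.8 FPKM in control and TBHQ libraries, between 40.5 and 44.5 FPKM with LPS or PIC and between 37.4 and 38.4 FPKM with either stimulus after TBHQ. LPS and PIC libraries overlapped, and the 6 libraries of the stimuli after TBHQ lay under those of the stimuli alone and over the control. With edgeR's quasi-likelihood test and Benjamini-Hochberg adjustment it rose by 0.79 with LPS (SE 0.059, adjusted p = 1.3e-17) and by 0.80 with PIC (SE 0.067, 4.1e-18). PIC against LPS gave 0.01 (SE 0.046), and -0.12 under total library size, where it was called lower (edgeR with Benjamini-Hochberg adjustment, adjusted p = 0.0227). TBHQ gave -0.15 before LPS (SE 0.025, 0.00783) and -0.14 before PIC (SE 0.041, 0.00729) in edgeR's quasi-likelihood test and Benjamini-Hochberg adjustment, and -0.03 alone (SE 0.056, 0.712). The first of these calls was lost without LPS replicate 1 (-0.13, edgeR with Benjamini-Hochberg adjustment, adjusted p = 0.052) and the second under total library size (-0.08, 0.158).

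*Bcl2* (ENSMUSG00000057329, chr1:106465908-106642004, minus strand), the founding anti-apoptotic member, was the one anti-apoptotic member that fell with PIC. It lay between 1.58 and 1.84 FPKM in the control, 1.86 and 2.17 FPKM with LPS, 1.20 and 1.27 FPKM with PIC and 1.24 and 1.73 FPKM with PIC+TBHQ. The PIC libraries lay under the control libraries, while those of PIC+TBHQ reached from the PIC level into the control's range. By edgeR's quasi-likelihood test and Benjamini-Hochberg adjustment, *Bcl2* changed by -0.50 with PIC (SE 0.073, adjusted p = 8.0e-05) and by -0.72 in PIC against LPS (SE 0.073, 1.0e-06). With LPS it gave 0.22 (SE 0.095, edgeR with Benjamini-Hochberg adjustment, adjusted p = 0.0619), which was called without LPS replicate 3 (0.29, 0.0229) or with a minimum mean of 50 counts (0.24, 0.0357). TBHQ before PIC gave 0.24 (SE 0.14, edgeR with Benjamini-Hochberg adjustment, adjusted p = 0.086), which was called without PIC+TBHQ replicate 1 (0.34, 0.0225) or under total library size (0.31, 0.023). TBHQ gave -0.04 before LPS (SE 0.069) and 0.09 alone (SE 0.068), with overlapping libraries.

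*Bax* (ENSMUSG00000003873, chr7:45111121-45116322, minus strand), whose product moves from the cytosol into the mitochondrial membrane, lay between 142.4 and 168.9 FPKM over the 18 libraries and was not called in any comparison. Its log2 fold changes were 0.02 with LPS (-0.07 under total library size), 0.06 with PIC (-0.16), 0.04 in PIC against LPS (-0.09), 0.03 for TBHQ before LPS, 0.09 before PIC and 0.02 for TBHQ alone. In PIC against control it was called higher without PIC replicate 1 (0.12, edgeR with Benjamini-Hochberg adjustment, adjusted p = 0.0447) and lower under total library size (-0.16, 0.00303), and that scaling called it higher for TBHQ before PIC (0.16, 0.0043). Of its words of 50 bases, 8.51% also occur in *Gm45808*.

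*Bak1* (ENSMUSG00000057789, chr17:27238784-27247983, minus strand), whose product sits in the outer mitochondrial membrane, lay between 67.4 and 68.3 FPKM in the control, 58.5 and 60.2 FPKM with LPS, 59.0 and 63.7 FPKM with PIC and 66.2 and 67.5 FPKM with PIC+TBHQ. LPS and PIC libraries overlapped one another and lay under the control. In edgeR's quasi-likelihood test (Benjamini-Hochberg adjustment) *Bak1* fell by 0.20 on the log2 scale with LPS (SE 0.013, adjusted p = 5.6e-05) and fell by 0.17 with PIC (SE 0.032, 0.00048), the second being -0.38 (1.3e-10) under total library size. TBHQ before PIC gave 0.14 (SE 0.032, edgeR with Benjamini-Hochberg adjustment, adjusted p = 0.00538), and 0.10 (0.092) without PIC replicate 1. TBHQ before LPS gave 0.08 (SE 0.031, edgeR with Benjamini-Hochberg adjustment, adjusted p = 0.155), and 0.10 (0.0495) under total library size. PIC against LPS gave 0.04 (-0.09 under total library size) and TBHQ alone 0.03.

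*Bcl2l11* (ENSMUSG00000027381, chr2:127967958-128004467, plus strand) encodes BIM, a BH3-only protein that binds the anti-apoptotic members broadly and can activate BAX. It read 3.35, 3.33 and 3.00 FPKM in the control and 3.70, 3.60 and 3.99 FPKM with TBHQ. With LPS it read 5.77, 5.14 and 5.30 FPKM, and with LPS+TBHQ 4.07, 3.60 and 3.85 FPKM. PIC brought 8.99, 9.10 and 8.55 FPKM, and PIC+TBHQ 5.44, 5.58 and 5.41 FPKM. PIC libraries were highest and control libraries lowest, LPS and PIC+TBHQ overlapped, and TBHQ libraries overlapped those of LPS+TBHQ. By edgeR's quasi-likelihood test and Benjamini-Hochberg adjustment it rose by 0.74 with LPS (SE 0.070, adjusted p = 8.8e-12), by 1.44 with PIC (SE 0.060, 9.3e-21), a fold change of 2.72, and by 0.71 in PIC against LPS (SE 0.055, 1.3e-11). TBHQ gave -0.49 before LPS (SE 0.070, 1.7e-07) and -0.69 before PIC (SE 0.031, 1.6e-11) in edgeR's quasi-likelihood test and Benjamini-Hochberg adjustment. TBHQ alone had the other sign, 0.22 (SE 0.068, edgeR with Benjamini-Hochberg adjustment, adjusted p = 0.012), a call lost without control replicate 3 (0.17, 0.0977) or without TBHQ replicate 3 (0.18, 0.0835).

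*Bbc3* (ENSMUSG00000002083, chr7:16042318-16052130, plus strand) encodes PUMA, a BH3-only protein and a target of p53. It read 14.7, 15.8 and 15.0 FPKM in the control and 9.92, 11.4 and 11.1 FPKM with TBHQ. With LPS it read 20.6, 20.8 and 22.2 FPKM, and with LPS+TBHQ 15.4, 14.5 and 15.7 FPKM. With PIC it read 21.4, 22.4 and 20.5 FPKM, and with PIC+TBHQ 16.9, 15.8 and 16.3 FPKM. LPS and PIC libraries overlapped and were highest, LPS+TBHQ and PIC+TBHQ overlapped the control, and TBHQ alone was lowest. *Bbc3* rose by 0.48 with LPS (SE 0.046, edgeR quasi-likelihood test, Benjamini-Hochberg adjusted p = 8.9e-08) and by 0.48 with PIC (SE 0.049, 4.8e-08), and under total library size these were 0.39 and 0.26. TBHQ gave -0.48 before LPS (SE 0.048, 2.4e-07), -0.38 before PIC (SE 0.047, 1.2e-05) and -0.49 alone (SE 0.068, 5.1e-07) by edgeR's quasi-likelihood test and Benjamini-Hochberg adjustment. PIC against LPS gave 0.0022 (SE 0.050), and -0.13 under total library size.

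*Pmaip1* (ENSMUSG00000024521, chr18:66591604-66598636, plus strand) encodes NOXA, a BH3-only protein that binds MCL1 and A1. It read 11.3, 14.1 and 13.3 FPKM in the control and 8.29, 8.66 and 8.03 FPKM with TBHQ. With LPS it read 11.1, 11.3 and 10.4 FPKM, and with LPS+TBHQ 9.17, 9.25 and 8.53 FPKM. With PIC it read 12.0, 12.7 and 13.8 FPKM, and with PIC+TBHQ 8.20, 9.25 and 8.53 FPKM. The 3 groups that received TBHQ overlapped one another and lay under the 3 that did not, and the control overlapped both LPS and PIC. TBHQ gave -0.63 alone (SE 0.10, 5.0e-08), -0.29 before LPS (SE 0.052, 0.00593) and -0.56 before PIC (SE 0.075, 6.5e-07) in edgeR's quasi-likelihood test and Benjamini-Hochberg adjustment. LPS gave -0.24 (SE 0.10, edgeR with Benjamini-Hochberg adjustment, adjusted p = 0.00791), a call lost without control replicate 2 (-0.18, 0.088) or LPS replicate 3 (-0.20, 0.0598). PIC gave -0.03 (SE 0.11, edgeR with Benjamini-Hochberg adjustment, adjusted p = 0.786), and -0.24 (0.00508) under total library size. PIC against LPS gave 0.22 (SE 0.068, edgeR with Benjamini-Hochberg adjustment, adjusted p = 0.0316), which was lost without LPS replicate 1 (0.23, 0.0587), LPS replicate 3 (0.19, 0.125), PIC replicate 2 (0.23, 0.055) or PIC replicate 3 (0.16, 0.176), and under total library size (0.09, 0.397).

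**Figure D2:**
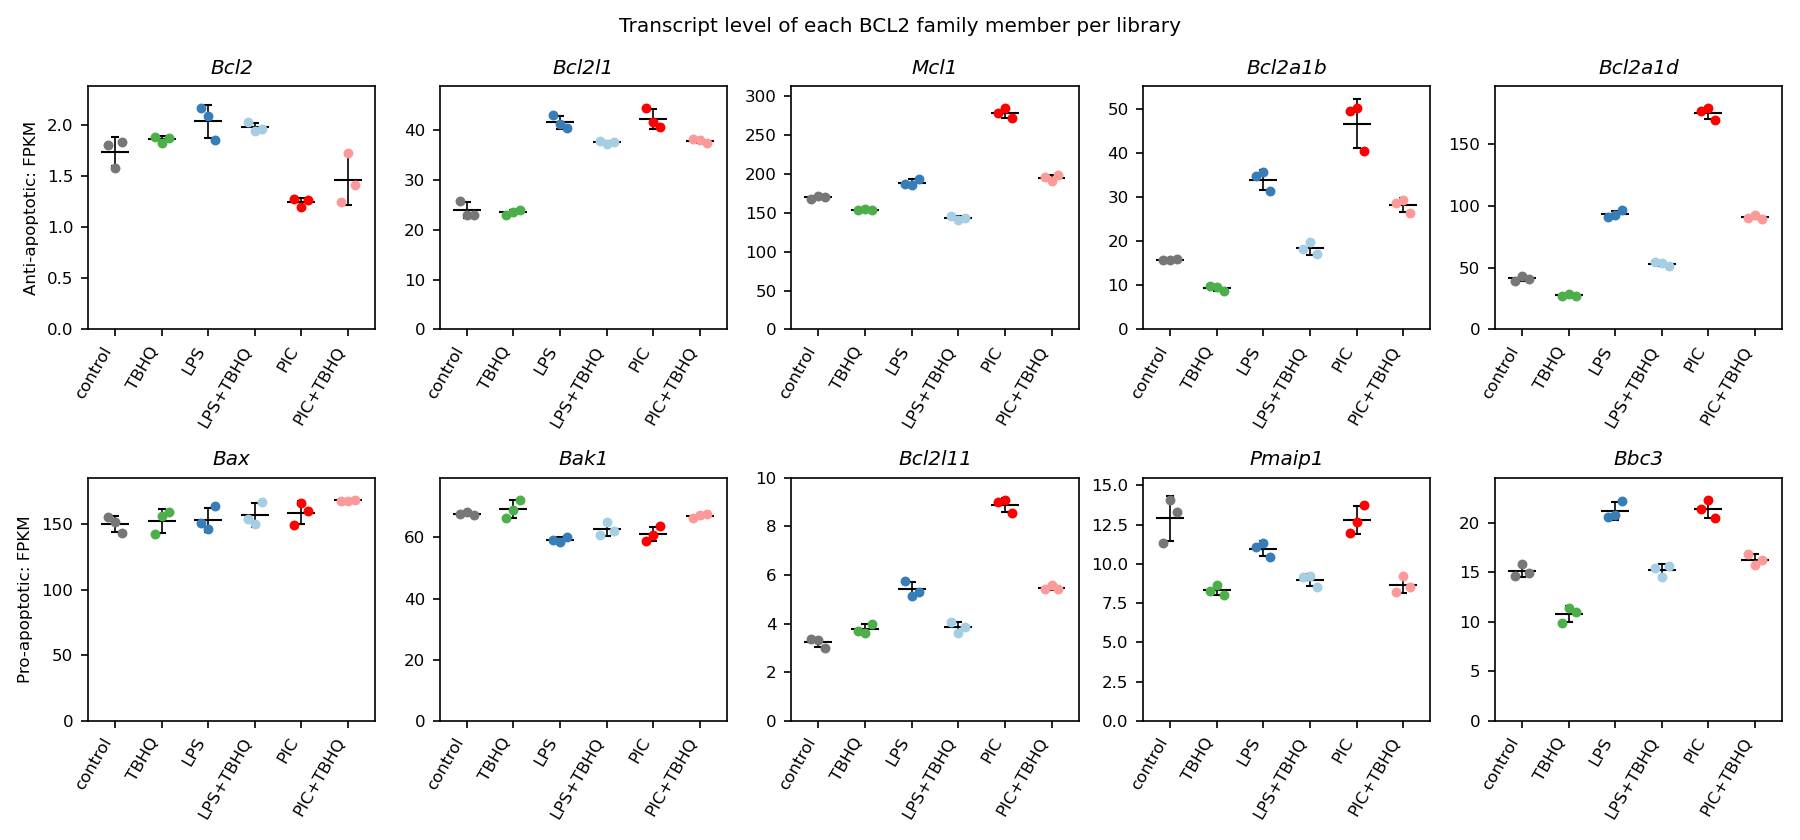
Level in FPKM (vertical axis, from 0, a scale of its own for each gene) of the 10 members in each of the 18 libraries, with a line for the group mean and bars for the SD of 3 libraries. *Bcl2a1d* ranges from 26.9 to 179.0 FPKM, while *Bax* stays between 142.4 and 168.9 FPKM.

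Anti- and pro-apoptotic levels were summed per library to show their balance in transcripts. The 5 anti-apoptotic members summed to 252.8 ± 2.20 FPKM (SD, n = 3) in the control, 216.7 ± 2.22 after TBHQ, 359.9 ± 3.50 after LPS, 254.6 ± 3.94 after LPS+TBHQ, 544.3 ± 17.3 after PIC and 353.8 ± 0.896 after PIC+TBHQ. The 5 pro-apoptotic members summed to group means between 244.7 and 265.8 FPKM. *Bax* and *Bak1* made up 87.5% ± 0.809 (SD, n = 3) of that sum in the control and 83.6% ± 0.441 after PIC, so the sum mostly follows these 2 genes. The 3 BH3-only members by themselves summed to 31.3 ± 1.94 FPKM (SD, n = 3) in the control, 22.9 ± 0.896 after TBHQ, 37.6 ± 0.340 after LPS, 28.0 ± 0.626 after LPS+TBHQ, 43.1 ± 0.937 after PIC and 30.4 ± 0.208 after PIC+TBHQ. All these sums leave out the wider family, in which the BH3-only gene *Bid* moved the other way with each stimulus and with TBHQ before it. *Bid* read 32.54, 30.96 and 29.74 FPKM in the control, 23.01, 21.77 and 22.75 with LPS and 29.32, 29.5 and 30.33 with LPS+TBHQ. PIC libraries held 26.35, 26.01 and 28.43 FPKM of *Bid*, and PIC+TBHQ libraries 33.86, 32.63 and 33.92. The ratio of the first sum to the second was 1.01 ± 0.0266 (SD, n = 3) in the control, 0.887 ± 0.0440 after TBHQ, 1.44 ± 0.0447 after LPS, 1.03 ± 0.0450 after LPS+TBHQ, 2.07 ± 0.118 after PIC and 1.33 ± 0.00737 after PIC+TBHQ. PIC libraries (1.97 to 2.20) stood highest, the LPS libraries (1.39 to 1.48) lay above those of PIC+TBHQ (1.33 to 1.34), LPS+TBHQ (0.979 to 1.07) overlapped the control (0.992 to 1.04), and TBHQ alone (0.847 to 0.934) lay under it. No test was made of this ratio.

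*Mcl1* made up 67.3% ± 0.243 (SD, n = 3) of the anti-apoptotic sum in the control, 52.5% ± 0.662 after LPS and 51.3% ± 0.672 after PIC. Without *Mcl1* the ratio was 0.331 ± 0.00624 (SD, n = 3) in the control, 0.256 ± 0.0120 after TBHQ, 0.683 ± 0.0306 after LPS, 0.449 ± 0.0252 after LPS+TBHQ, 1.01 ± 0.0710 after PIC and 0.596 ± 0.0147 after PIC+TBHQ. The order of the groups was that of the full ratio, and here no group overlapped another. The ratio of *Mcl1* to *Bcl2l11*, which encodes one of the proteins MCL1 binds, was 52.9 ± 3.56 (SD, n = 3) in the control, 41.1 ± 2.4 after TBHQ, 35.1 ± 2.24 after LPS, 37.4 ± 1.56 after LPS+TBHQ, 31.4 ± 0.434 after PIC and 35.7 ± 1.22 after PIC+TBHQ. Both genes were higher with PIC, by 0.70 and 1.44 on the log2 scale. Transcript sums carry no information on protein amounts or on how strongly the proteins bind one another.

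**Figure D3:**
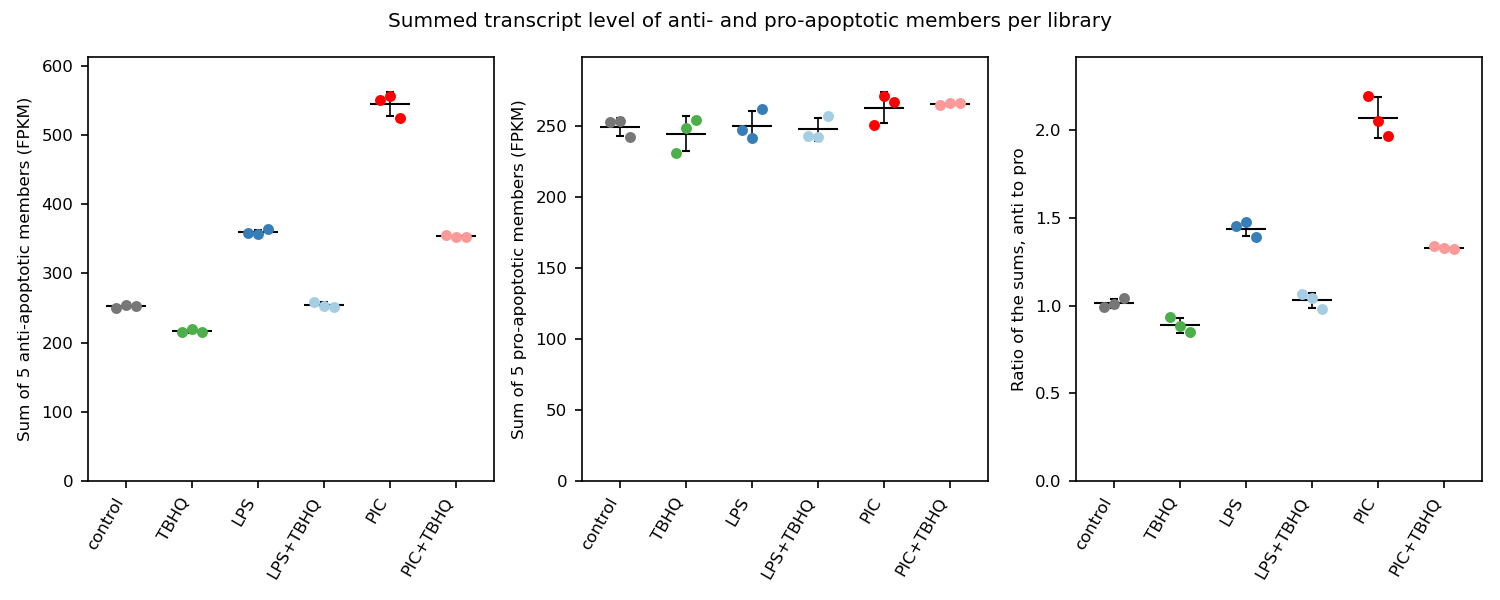
Summed FPKM of the 5 anti-apoptotic members (left), of the 5 pro-apoptotic members (middle) and their ratio (right) in each library, with a line for the group mean and bars for the SD of 3 libraries. The anti-apoptotic sum ranges over group means from 216.7 to 544.3 FPKM and the pro-apoptotic sum from 244.7 to 265.8 FPKM.

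Of 15 further genes of the wider family, 10 were tested. *Bcl2l14* had no count, *Bcl2l10* and *Hrk* had at most 1 count in a library, *Bok* at most 7 and *Bcl2l15* at most 13, and these 5 were not tested. The tested genes called higher and lower numbered 4 and 1 with LPS, 5 and 2 with PIC, 5 and 1 in PIC against LPS, 2 and 3 for TBHQ before LPS, 3 and 3 before PIC and 1 and 2 for TBHQ alone. For these counts and those of the lists below, the shares of all genes tested called higher and lower were 24% and 24.1% with LPS, 28.6% and 30.1% with PIC, 14.9% and 12.8% in PIC against LPS, 11.7% and 12.2% for TBHQ before LPS, 15.8% and 15.5% before PIC and 14.2% and 14.8% alone. A share near these is not a result about a list. Of the wider family, the number higher for TBHQ before LPS was 1 without LPS replicate 2 or LPS+TBHQ replicate 2 or 3, before PIC it was 1 without PIC+TBHQ replicate 1, and for TBHQ alone it was 2 without control replicate 1 and 0 without control or TBHQ replicate 2. Under total library size 3 were lower with LPS, 4 with PIC and 2 in PIC against LPS. Their median log2 fold change was 0.03 with LPS (-0.06 under total library size), 0.17 with PIC (-0.04), 0.13 in PIC against LPS (-0.0037), 0.01 for TBHQ before LPS (0.03), 0.05 before PIC (0.12) and -0.01 alone.

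*Bcl2a1a*, the third expressed copy of the A1 genes (69.0% of its words of 50 bases occur in another gene), read 1.27, 0.674 and 1.16 FPKM in the control and 10.6, 9.01 and 8.79 FPKM with LPS. With LPS+TBHQ it read 3.50, 3.53 and 3.55 FPKM. The PIC libraries read 17.4, 12.6 and 13.3 FPKM, and with PIC+TBHQ 5.17, 6.53 and 5.18 FPKM. No 2 of these groups overlapped. Its counts were low without a stimulus, at 16, 9 and 16 in the control and 6, 7 and 9 with TBHQ. Its log2 fold changes were 3.18 with LPS (SE 0.26, edgeR quasi-likelihood test, Benjamini-Hochberg adjusted p = 1.5e-14), 3.77 with PIC (SE 0.28, 1.5e-17), -1.42 for TBHQ before LPS (SE 0.080, 7.7e-08) and -1.35 before PIC (SE 0.18, 2.4e-08). TBHQ alone gave -0.94 (SE 0.28, edgeR with Benjamini-Hochberg adjustment, adjusted p = 0.0535), which was called without control replicate 2 (-1.17, 0.0246), in limma or with a minimum mean of 50 counts. *Bcl2l2*, which encodes the anti-apoptotic BCL-W, rose by 0.68 with LPS (SE 0.084, edgeR quasi-likelihood test and Benjamini-Hochberg adjustment, adjusted p = 5.2e-10) and by 0.92 with PIC (SE 0.095, 8.6e-14). TBHQ alone gave 0.24 for *Bcl2l2*, which was not called without control replicate 2 (0.17) or TBHQ replicate 2 (0.18), and PIC against LPS gave 0.24, which was not called without PIC replicate 2 (0.20) or under total library size (0.11).

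Among the other BH3-only genes, *Bid* has a product that is cut by caspase 8. Its level was 31.1 ± 1.40 FPKM (SD, n = 3) in the control, 22.5 ± 0.653 after LPS, 29.7 ± 0.534 after LPS+TBHQ, 26.9 ± 1.31 after PIC and 33.5 ± 0.727 after PIC+TBHQ. Its log2 fold changes were -0.47 with LPS (SE 0.044, edgeR quasi-likelihood test, Benjamini-Hochberg adjusted p = 3.8e-11), -0.22 with PIC (SE 0.055, 4.6e-05, and -0.44 under total library size), 0.25 in PIC against LPS (SE 0.045, 4.7e-05, and 0.12 under total library size), 0.40 for TBHQ before LPS (SE 0.027, 8.0e-09) and 0.32 before PIC (SE 0.044, 3.1e-07). *Bmf*, whose product is linked to the cytoskeleton, was scarce, with 26 to 32 counts in control libraries, 13 to 18 with LPS and 5 to 8 with PIC. It fell by 2.11 on the log2 scale with PIC (SE 0.11, edgeR quasi-likelihood test and Benjamini-Hochberg adjustment, adjusted p = 4.8e-06). TBHQ gave 0.92 for *Bmf* before LPS (not called without LPS replicate 2, 0.79, LPS+TBHQ replicate 2, 0.88, or LPS+TBHQ replicate 3, 0.90, or in DESeq2) and 1.25 before PIC (not called without PIC replicate 1, 1.18, PIC replicate 2, 1.17, PIC+TBHQ replicate 1, 1.18, or PIC+TBHQ replicate 3, 1.17, or in limma on log2(FPKM + 1)). *Bik* had 0, 1 and 0 counts in the control, 6, 3 and 12 with LPS and 6, 5 and 8 with PIC. It was tested and is among the genes called higher with LPS and with PIC, but counts this low do not support a size of change. *Bad* lay between 4.47 and 6.01 FPKM and was called in 1 comparison, TBHQ before PIC (0.29), where it was not called without PIC replicate 3 (0.22), PIC+TBHQ replicate 1 (0.28) or PIC+TBHQ replicate 2 (0.28), in DESeq2 or with no filter, and under total library size it was called lower with PIC (-0.23).

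*Bnip3*, whose product marks mitochondria for removal in low oxygen, had the largest change with TBHQ alone among the genes of the family that were tested. Its level was 26.1 ± 0.463 FPKM (SD, n = 3) in the control, 8.85 ± 0.602 after TBHQ, 46.1 ± 1.11 after LPS, 20.6 ± 1.32 after LPS+TBHQ, 65.5 ± 1.95 after PIC and 26.6 ± 1.39 after PIC+TBHQ. In edgeR's quasi-likelihood test and Benjamini-Hochberg adjustment the log2 fold changes were -1.56 with TBHQ alone (SE 0.058, adjusted p = 4.3e-21), -1.16 before LPS (SE 0.058, 1.8e-19) and -1.29 before PIC (SE 0.050, 5.1e-21). *Bnip3l*, a related mitophagy receptor, gave -0.36 with TBHQ alone (SE 0.035, edgeR with Benjamini-Hochberg adjustment, adjusted p = 6.9e-06), -0.30 before PIC (SE 0.048, 5.4e-05) and -0.20 before LPS (SE 0.10, 0.00789). The last of these was -0.09 (0.217) without LPS replicate 1, and LPS against control, 0.09, was called without LPS replicate 3 (0.16, edgeR with Benjamini-Hochberg adjustment, adjusted p = 0.0257). *Bcl2l12* (1.22 to 2.34 FPKM) and *Bcl2l13* (5.16 to 6.33 FPKM) were not called in any comparison, and *Bcl2l13* was called lower with LPS (-0.17), with PIC (-0.32) and in PIC against LPS (-0.16) under total library size.

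Downstream of the mitochondria, the 12 genes of the apoptosome and caspases had 3 called higher and 7 lower after LPS, and after PIC 3 higher (*Cycs* among them, -0.05 under total library size) and 7 lower. The count after LPS depended on single libraries, with 2 higher and 4 lower without control replicate 2 or LPS replicate 1 and 1 higher and 5 lower without control replicate 3, and it was 1 and 4 with no filter and 1 and 8 under total library size. *Apaf1*, the scaffold of the apoptosome, was the highest (0.38 with LPS, 0.69 with PIC, 0.31 in PIC against LPS, the last 0.18 under total library size), and *Parp1*, a DNA repair enzyme cut by caspases, the lowest (-0.53 with LPS and -0.75 with PIC). PIC against LPS had 1 higher and 3 lower, with *Casp2* lowest at -0.29. TBHQ before LPS had 2 higher and 2 lower, with *Casp9* at 0.20 (not called without LPS replicate 1, 0.17, or LPS+TBHQ replicate 3, 0.15, or in DESeq2) and *Cycs*, the gene of cytochrome c, at -0.30, and 1 was lower without LPS+TBHQ replicate 3. TBHQ before PIC had 3 higher and 3 lower, with *Endog* at 0.62 (not called without PIC replicate 2, 0.45). TBHQ alone had 1 lower, *Cycs* at -0.21, and 2 without control replicate 2. The list's median was -0.19 with LPS, -0.30 with PIC, 0.02 for TBHQ before LPS and 0.08 before PIC, against medians of all genes tested between -0.01 and 0.01 in these comparisons. Under total library size it was -0.28, -0.52, 0.04 and 0.15 in that order, against -0.09, -0.23, 0.03 and 0.08 over all genes.

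Of 7 inhibitors of apoptosis and their antagonists, LPS gave 1 higher and 2 lower, PIC 2 higher (*Birc6* among them, at -0.00042 under total library size) and 2 lower, and PIC against LPS 2 higher and 2 lower (0 lower without LPS replicate 3 and 1 without PIC replicate 2). *Birc3*, which encodes the ubiquitin ligase cIAP2 of NF-κB signalling, stood at 8.91 ± 0.613 FPKM (SD, n = 3) in the control, 16.0 ± 0.510 after LPS, 12.2 ± 0.674 after LPS+TBHQ, 27.8 ± 0.802 after PIC and 18.8 ± 0.558 after PIC+TBHQ. It rose by 0.84 with LPS and 1.63 with PIC and by 0.78 in PIC against LPS, and TBHQ gave -0.40 before LPS and -0.55 before PIC. *Birc5*, which encodes survivin and is made in dividing cells, fell by 1.5 on the log2 scale with LPS and fell by 1.75 with PIC. It gave -0.25 in PIC against LPS, which was not called without LPS replicate 3 (-0.21) or PIC replicate 2 (-0.19) and was -0.38 under total library size. TBHQ before LPS had 1 higher (*Birc5*, 0.37) and 2 lower, TBHQ before PIC 1 higher (*Htra2*, 0.18) and 4 lower, and TBHQ alone 1 higher (*Birc6*, 0.26), with 1 lower without TBHQ replicate 3. Here the median was 0.03 with LPS (-0.06 under total library size), 0.05 with PIC (-0.17), -0.01 for TBHQ before LPS (0.01) and -0.24 before PIC.

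Of 11 genes of the death receptor pathway, 10 were tested and *Tnfsf10* was not. LPS gave 7 higher and 1 lower, PIC 7 higher (*Tnfrsf1a* among them, -0.08 under total library size) and 1 lower, and PIC against LPS 3 higher. *Tnf*, the inflammatory cytokine, stood at 120.1 ± 10.6 FPKM (SD, n = 3) in the control, 193.2 ± 4.07 after TBHQ, 497.1 ± 11.7 after LPS, 420.3 ± 13.4 after LPS+TBHQ, 1072 ± 49.8 after PIC and 599.5 ± 14.3 after PIC+TBHQ. It rose by 2.04 with LPS, 3.14 with PIC and 0.68 with TBHQ alone, and TBHQ gave -0.24 before LPS and -0.83 before PIC. *Fadd*, an adaptor of the receptors, was the gene called lower with LPS (-0.35) and with PIC (-0.50). *Fas* was highest in PIC against LPS (1.14) and lowest in TBHQ before LPS (-0.74), and *Cflar*, which encodes a decoy of caspase 8, was the lowest of those called in PIC against LPS (0.63). TBHQ before LPS had 4 lower, TBHQ before PIC 5 lower and 1 higher (*Tradd*, 0.27, not called without PIC replicate 3, 0.17, or PIC+TBHQ replicate 1, 0.23), and TBHQ alone 3 higher and 3 lower, with *Casp8* lowest at -0.33. Among those 6, *Fas* (0.43) was not called without control replicate 1 (0.41) or 3 (0.33), TBHQ replicate 2 (0.39) or 3 (0.34) or with the groups compared only, and *Fadd* (-0.26) was not called without control replicate 1 (-0.28), 2 (-0.23) or 3 (-0.25) or TBHQ replicate 1 (-0.23) or 2 (-0.21), in DESeq2, in limma or with no filter. The median of the 10 was 0.38 with LPS and 0.46 with PIC (0.29 and 0.24 under total library size, which turns their order), -0.12 for TBHQ before LPS and -0.22 before PIC.

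Of 8 genes of lytic cell death, 7 were higher and 1 lower with LPS, the same numbers with PIC, and 5 were higher in PIC against LPS. TBHQ before LPS had 5 lower and 1 higher, TBHQ before PIC 4 lower and 2 higher, and TBHQ alone 6 lower and 1 higher. The median of the 8 was 0.65 with LPS and 0.74 with PIC (0.56 and 0.52 under total library size, which turns their order). It was -0.32 for TBHQ before LPS, -0.20 before PIC (-0.13 under total library size) and -0.23 alone. *Zbp1*, a sensor of Z-form nucleic acid, stood at 4.93 ± 0.520 FPKM (SD, n = 3) in the control, 2.31 ± 0.178 after TBHQ, 29.4 ± 1.61 after LPS, 7.19 ± 0.112 after LPS+TBHQ, 39.1 ± 1.69 after PIC and 19.6 ± 0.581 after PIC+TBHQ. It rose by 2.57 with LPS, 2.97 with PIC and 0.40 in PIC against LPS, and TBHQ gave -2.03 before LPS, -0.98 before PIC and -1.10 alone. *Ninj1*, which ruptures the membrane of dying cells, was highest in the comparisons with TBHQ, at 0.34 before LPS, 0.30 before PIC and 0.48 alone. *Gsdmd*, the pore of pyroptosis, was the lowest of those called in PIC against LPS (0.15, not called under total library size, 0.02). *Gsdme* gave -0.26 with LPS, not called without control replicate 2 (-0.23) or 3 (-0.22) or LPS replicate 1 (-0.27) or 2 (-0.18), in DESeq2, in limma, with RLE size factors, with no filter, with a minimum mean of 50 counts or with the groups compared only. It gave -0.28 with PIC, not called without control replicate 2 (-0.26) or 3 (-0.24) or PIC replicate 2 (-0.24) or 3 (-0.22), in DESeq2, in limma or with no filter, and -0.50 under total library size.

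Of transcription factors upstream of the family, 5 of the 6 whose symbol names 1 gene were tested, with *Trp73* not tested and *Ddit3* left out because 2 genes carry the symbol. *Myc* rose by 1.95 with LPS, 1.69 with PIC and 0.59 with TBHQ alone, and TBHQ gave -0.54 before LPS and -0.45 before PIC. *Trp53*, which encodes p53, of which *Bbc3* is a known target, gave -0.32 with LPS, and *E2f1* gave -0.37 with PIC (-0.59 under total library size) and -0.47 in PIC against LPS. TBHQ before LPS gave 0.10 for *Trp53*, not called without LPS replicate 1 (0.10) or 2 (0.08) or LPS+TBHQ replicate 1 (0.11) or 3 (0.08) or with the groups compared only. TBHQ before PIC gave 0.18 for *E2f1*, not called without PIC replicate 1 (0.17) or 2 (0.11) or PIC+TBHQ replicate 2 (0.15) or 3 (0.16), in DESeq2, in limma, with RLE size factors or with a minimum mean of 50 counts. *Foxo3* gave 0.17 in PIC against LPS, not called without LPS replicate 2 (0.15) or under total library size (0.04). The counts higher and lower were 2 and 1 with LPS, 2 and 2 with PIC, 1 and 2 in PIC against LPS, 1 and 2 for TBHQ before LPS and 1 and 2 before PIC, with 1 higher for TBHQ alone. Their median was 0.10 with LPS (0.01 under total library size), -0.06 with PIC (-0.27), 0.06 for TBHQ before LPS and 0.02 before PIC (0.09).

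Among 4 genes of MCL1 protein turnover, 1 was higher with LPS, 3 with PIC and 1 in PIC against LPS, with 1 lower for TBHQ before PIC and 1 higher for TBHQ alone. The number with LPS was 2 without LPS replicate 3, that lower before PIC was 2 without PIC replicate 2, and under total library size PIC gave 0 higher and 1 lower. Their median was 0.05 with LPS (-0.04 under total library size), 0.15 with PIC (-0.06), 0.01 for TBHQ before LPS (0.04) and -0.11 before PIC (-0.04). *Btrc* gave 0.31 with LPS, not called without control replicate 1 (0.27) or 3 (0.26), in limma on log2(FPKM + 0.1) or under total library size (0.22), and 0.34 with PIC, not called under total library size (0.12). *Usp9x*, which encodes a deubiquitinase of MCL1, gave 0.14 with PIC and -0.07 under total library size. *Huwe1*, which encodes a ubiquitin ligase of MCL1, gave 0.20 with TBHQ alone and -0.12 for TBHQ before PIC, the second not called without PIC replicate 1 (-0.10) or PIC+TBHQ replicate 3 (-0.09) or under total library size (-0.05). *Fbxw7* gave 0.18 in PIC against LPS, not called without LPS replicate 1 (0.19) or 3 (0.14) or PIC replicate 1 (0.18) or 3 (0.16), in DESeq2, in limma, with the groups compared only, with no filter or under total library size (0.05).

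The 3 outer membrane channels had changes of at most 0.23 in size on the log2 scale. LPS gave 1 higher and 2 lower, and 1 was higher in each of PIC against control, PIC against LPS, TBHQ before LPS and TBHQ before PIC, with 1 lower for TBHQ alone. PIC gave 1 lower as well without control replicate 3, and 0 higher and 2 lower under total library size. Their median was -0.12 with LPS (-0.20 under total library size), -0.05 with PIC (-0.26), 0.03 for TBHQ before LPS (0.05) and 0.02 before PIC (0.09). *Vdac3* gave 0.23 with LPS (0.14 under total library size) and 0.18 with PIC (-0.04), and *Vdac2*, which holds BAK, gave -0.17 with LPS (-0.26 under total library size), 0.19 for TBHQ before LPS and 0.21 before PIC. *Vdac2* gave 0.10 in PIC against LPS (-0.03 under total library size), not called without LPS replicate 1 (0.10) or 2 (0.09) or PIC replicate 2 (0.09) or 3 (0.08), with the groups compared only or with no filter. *Vdac3* gave -0.12 with TBHQ alone, not called without control replicate 1 (-0.12) or 2 (-0.11) or TBHQ replicate 2 (-0.11) or 3 (-0.11) or with no filter.

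Across the 18 libraries the range of group means of log2 CPM (counts scaled to library size) was widest for *Bcl2a1d* (2.64) and *Bcl2a1b* (2.28), followed by *Bcl2l11* (1.44), and narrowest for *Bax* (0.16). The 10451 genes with a mean of at least 50 counts were searched for the patterns most like the first 2, by Pearson correlation of log2 CPM over the 18 libraries, a description in which libraries of a group share their treatment. For *Bcl2a1d* these were *Slfn2* (0.994), *Gm20559* (0.993), *Rgl1* (0.991), *Il6* (0.989) and *Btg1* (0.989). For *Bcl2a1b* they were *Gvin-ps7* (0.991), *Lgals9* (0.988), *Ms4a6d* (0.988), *Ifi202b* (0.987) and *Xaf1* (0.986). Among the members themselves the correlation over the 18 libraries was 0.981 for *Bcl2a1b* with *Bcl2a1d*, 0.934 for *Bcl2a1b* with *Bbc3*, 0.919 for *Bcl2a1d* with *Bcl2l11* and 0.906 for *Mcl1* with *Bcl2l11*. *Bcl2* ran against *Mcl1* (-0.799) and *Bak1* against *Bcl2l1* (-0.796).

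To describe which known motifs of these pathways lie before the members' start sites, promoters were read from the RefSeq table of build GRCm38.p6, in which 9 of the 10 members matched with 14 start sites, *Pmaip1* being the other. The 250 bases before each start were searched on both strands for the κB consensus bound by NF-κB (in 7.25% of 32851 promoters of that length), the core TGACNNNGC of the antioxidant response element (10.2%) and the core of the interferon-stimulated response element, GAAA and GAAA with any 2 bases between (2.98%). *Bbc3* had κB matches before 1 of its 3 start sites. These are 3 matches that overlap in 1 stretch, 2 of them being the same bases read on both strands. Bases after that start were found in no *Bbc3* transcript of GENCODE vM21. They were found for the start after chr7:16310181-16310430, a window with no match. The matches are marked in capitals in the sequence from chr7:16309333-16309582 on the plus strand.
Bbc3 promoter: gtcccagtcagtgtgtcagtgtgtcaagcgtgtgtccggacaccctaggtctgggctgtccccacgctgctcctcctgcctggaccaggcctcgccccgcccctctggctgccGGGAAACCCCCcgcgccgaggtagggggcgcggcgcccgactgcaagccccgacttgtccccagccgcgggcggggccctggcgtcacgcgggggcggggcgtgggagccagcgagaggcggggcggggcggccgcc
*Bcl2l1* had 1 κB match before one start site and 1 match to the antioxidant core before another, both in windows that lie within annotated exons. No match to the 3 motifs was found in the windows of *Bcl2*, *Mcl1*, *Bcl2a1b*, *Bcl2a1d*, *Bax*, *Bak1* or *Bcl2l11*, which says only that these letters are not there. The *Bak1* window lies within annotated exons, and the windows of *Bcl2a1d* and *Bcl2a1b* hold 167 and 64 exon bases. A match is a description of the letters and not of binding.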

How the data were processed

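RNA was measured in 18 libraries, 3 in each of 6 groups. The authors deposited counts per gene, made with HISAT2 2.0.5 and featureCounts 1.5.0-p3, with StringTie 1.3.3b also named. The authors deposited FPKM as well, which equal the counts per length and library total times a constant of 0.943 to 1.12 for each library, so a further scaling is in them. The authors list each gene's length in bases, an other unit, used with FPKM.

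In R 4.3.3, edgeR 4.0.16 filtered counts with filterByExpr, normalized by TMM and tested 13691 genes in a quasi-likelihood fit over the 18 libraries with 1 coefficient per group (common dispersion 0.00192). Benjamini-Hochberg adjustment ran over the genes tested, and calls were made at an FDR below 0.05. Standard errors were derived from the SD of log2 CPM (prior count 2) in the 2 groups compared. For the difference in the TBHQ effect they came from LPS, LPS+TBHQ, PIC and PIC+TBHQ. Python 3.11.15 with matplotlib 3.10.9, numpy 2.4.6, pandas 2.3.3 and scipy 1.17.1 made the tables, figures and sequence counts. At 14423390 to 18851626 counts per library, 3 counts were the floor, which covers counting error only. The fit was tested on simulated data.

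The members and lists were chosen with earlier results of these data known. The text names the 10 members in each comparison, the wider family once, of each other list the called genes with the highest and lowest log2 fold change per comparison, and for the 2 members with the widest range the 5 genes with the most similar pattern. Any gene of a list of 8 or fewer could also be named. Some genes that these rules would name are not reported here.

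Alternatives were DESeq2 1.42.0 (Wald test), limma 3.58.1 on log2(FPKM + 1) and log2(FPKM + 0.1), edgeR on the groups compared, RLE size factors or total library size, no filter or a mean of at least 50 counts, the replicate number as a block, stricter thresholds, and leaving out each library in turn. Summing the *Bcl2a1* copies, the alternatives for genes of the other lists and the balance without each library were added after seeing the data. Identity between copies was computed on coding sequences of GENCODE vM21 and not on proteins. Positions of members are those of the authors' tables, whose labels name both GRCm38 and mm39. They are not on the build of the promoter windows, GRCm38.p6. *Bbc3*, for example, is listed at chr7:16042318-16052130, while a promoter window of it on GRCm38.p6 lies at chr7:16309333-16309582. Promoter windows that overlap annotated exons are not printed.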

Additional observations from a re-analysis of the deposited data

Results flagged for a closer look

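In edgeR no member of the BCL2 family was called for a difference in the TBHQ effect between the stimuli. Members with an unadjusted p under 0.05 numbered 3, while DESeq2 called 1 and limma 0. Of all genes, 0.825% were called higher and 1.01% lower. A count of 0 among 10 members is near these shares and is not a result about the family. Of the 49 genes tested of the other apoptosis lists, 5 were called, 1 higher and 4 lower. These calls are from edgeR's interaction test with Benjamini-Hochberg adjustment over all genes. The members and the other lists were not compared in a test. The values are the TBHQ effect with PIC minus that with LPS, on the log2 scale. *Tnf* gave -0.58 (SE 0.053, adjusted p = 1.8e-08), its TBHQ effect being -0.83 with PIC and -0.24 with LPS. *Zbp1* gave 1.05 (SE 0.063, adjusted p = 3.9e-11), its TBHQ effect being -0.98 with PIC and -2.03 with LPS.

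*Cflar* gave -0.20 (SE 0.037, adjusted p = 0.0277), a call lost without LPS replicate 3 (-0.19), LPS+TBHQ replicate 1 (-0.20) or 2 (-0.19), PIC replicate 1 (-0.19), PIC+TBHQ replicate 1 (-0.19) or 3 (-0.20), or under total library size (-0.15). *Birc6* gave -0.24 (SE 0.069, adjusted p = 0.0343), a call lost without LPS replicate 3 (-0.25), LPS+TBHQ replicate 1 (-0.22) or 2 (-0.22), PIC replicate 1 (-0.24), PIC+TBHQ replicate 1 (-0.22) or 3 (-0.22), in limma or under total library size (-0.20). *Xiap*, which encodes an inhibitor of caspases, gave -0.22 (SE 0.062, adjusted p = 0.0392), a call lost without LPS replicate 1 (-0.20) or 3 (-0.22), LPS+TBHQ replicate 1 (-0.22) or 3 (-0.21), PIC replicate 3 (-0.20), PIC+TBHQ replicate 1 (-0.23), 2 (-0.21) or 3 (-0.23), in limma or under total library size (-0.18). These adjusted p-values are from edgeR's quasi-likelihood test. Explanations of these differences were not tested.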

How the results depend on the processing

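Of 1110 alternative values of the members' log2 fold changes, 1086 kept their side of the FDR threshold without a reversal, 13 were no longer called, 9 became called and 2 reversed. Among genes of the other lists the numbers were 6217 of 6518, with 224, 67 and 10. Values called under neither setting that changed sign (35 for members, 223 for the other lists) are counted as kept. The reversals all came with total library size, which moves the median of all genes. Under it *Bax* with PIC was -0.155, *Bcl2l1* in PIC against LPS -0.117 and *Vdac2* in PIC against LPS -0.0344. With PIC, *Birc6* was -0.000422, *Cycs* -0.0504, *Fbxw7* -0.0517, *Huwe1* -0.157, *Ripk1* -0.121, *Tnfrsf1a* -0.0842, *Usp9x* -0.0745, *Vdac3* -0.0425 and *Xiap* -0.186.

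At an FDR below 0.01 with a log2 fold change beyond 2 in size, members called numbered 1 with PIC and 0 with TBHQ, with LPS, for TBHQ before LPS, for TBHQ before PIC and in PIC against LPS. Genes called then numbered 26 with TBHQ, 224 with LPS, 489 with PIC, 53 for TBHQ before LPS, 41 before PIC, 42 in PIC against LPS and 0 for the difference in the TBHQ effect, which follows from the stricter threshold. At an FDR below 0.01 alone, 2178 genes were called for TBHQ before LPS (main value 3274) and 115 for the difference (main value 251). The difference gave 380 genes with no filter, 147 in limma on log2(FPKM + 0.1) and 160 to 354 with a library left out (160 without LPS+TBHQ replicate 2), and DESeq2 called 1 member. The cause of these shifts was not tested. With a library left out, members called were 5 to 6 for TBHQ, 7 to 8 for LPS, 8 to 9 for PIC, 6 to 7 for TBHQ before LPS, 7 to 9 before PIC, 5 to 6 for PIC against LPS and 0 for the difference.

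With the replicate number as a block (replicate block) no member's call changed among 70 values, and members called numbered 6 with TBHQ, 8 with LPS, 8 with PIC, 7 for TBHQ before LPS, 8 before PIC, 6 in PIC against LPS and 0 for the difference, with 4036, 6609, 8063, 3316, 4342, 3836 and 274 genes called in that order. The replicate numbers carry no stated pairing. Depth limits *Bmf*, *Bik*, *Bcl2a1a* without a stimulus and the untested genes, whose counts were low, and levels of the *Bcl2a1* copies are limited by shared sequence.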
